A study of Homo sapiens with 30 samples.

Results

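The 10 genes described here, out of 60107 in the count table, are known transcriptional targets of the hypoxia-inducible factors (HIFs): VEGFA, ADM, CA9, PDK1, BNIP3, EGLN3, KDM3A, P4HA1, NDRG1 and ANKRD37. They were chosen by gene symbol, and each symbol matched 1 row. The RNA came from HepG2, an established human liver tumor cell line, sequenced as 30 libraries in 10 groups of 3 biological replicates. Cells were transfected with 1 of 5 oligonucleotides, received 10 µM Sorafenib, a kinase inhibitor used against liver cancer, or its vehicle dimethyl sulfoxide (DMSO) 24 h later, and were lysed after 6 h or 24 h of treatment. Lysis at 6 h was used for the inhibitor control (IC) and for I200c, an oligonucleotide that blocks miR-200c-3p. Lysis at 24 h was used for the mimic control (MC), for M222, which imitates miR-222-5p, and for M512, which imitates miR-512-3p. Each of the 5 transfections had a DMSO group and a Sorafenib group. Every culture was therefore transfected, 1 cell line was used, and the treatment time cannot be told apart from the set of oligonucleotides.

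In cells with enough oxygen, prolyl hydroxylases such as EGLN1 and EGLN3 mark the HIF alpha subunits HIF1A and EPAS1, the VHL complex then destroys them, and in low oxygen the alpha subunits pair with ARNT and bind short DNA words near their target genes. The targets serve angiogenesis, a switch of glucose use away from mitochondria, pH control, mitophagy, chromatin and matrix synthesis. VEGFA is also a known target of the integrated stress response, and in liver tumors it is the growth factor that draws in vessels; Sorafenib blocks its receptors as well as RAF kinases.

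The libraries held 3938764 to 9657063 counts, with a median of 6460786.5, so that the 3 counts that a count of 0 still allows correspond to 0.311 to 0.762 counts per 1000000 (CPM); such limits cover counting error only. Levels are given as CPM scaled by the trimmed mean of M-values (TMM) over all 30 libraries. The 3′ end libraries give about 1 fragment per transcript, so that these levels are not divided by gene length and do not separate the splice forms of VEGFA. All 10 markers of hepatocytes and HepG2 were counted and summed to 8539 to 18710 CPM. Of the endothelial markers 3 of 6 had any count, summing to 0 to 3.02 CPM, with VWF, KDR and TEK at 0. Of the fibroblast markers 3 of 6 had any count (0 to 13.6 CPM), and COL1A2, DCN and LUM were at 0. Of the leukocyte markers 5 of 6 had any count (103 to 311 CPM), nearly all of it LYZ, while CD3E was at 0.

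The promoters of the members are shown for 4 genes that cover the patterns found below: ADM and KDM3A, which were higher with Sorafenib at 24 h, P4HA1, which was lower, and BNIP3, which held the most HIF words and did not pass the test. Each run covers 250 bases before to 50 bases after the RefSeq start on GRCh38.p14, and capitals mark ACGTG or GCGTG, the core words bound by HIF, on either strand.
ADM, chr11:10304823-10305122, plus strand: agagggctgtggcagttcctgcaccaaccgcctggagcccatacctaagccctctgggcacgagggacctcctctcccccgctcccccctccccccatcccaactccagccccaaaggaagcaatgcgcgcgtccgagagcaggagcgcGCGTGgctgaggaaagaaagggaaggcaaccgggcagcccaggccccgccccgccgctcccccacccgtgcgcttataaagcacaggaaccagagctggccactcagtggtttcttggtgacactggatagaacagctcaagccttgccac
KDM3A, chr2:86441121-86441420, plus strand: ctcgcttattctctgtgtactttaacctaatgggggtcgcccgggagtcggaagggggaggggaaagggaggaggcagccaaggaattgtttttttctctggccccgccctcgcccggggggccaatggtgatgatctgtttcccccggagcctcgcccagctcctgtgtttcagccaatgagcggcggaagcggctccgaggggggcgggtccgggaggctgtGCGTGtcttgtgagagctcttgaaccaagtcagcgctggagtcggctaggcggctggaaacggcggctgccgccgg
P4HA1, chr10:73096817-73097116, minus strand: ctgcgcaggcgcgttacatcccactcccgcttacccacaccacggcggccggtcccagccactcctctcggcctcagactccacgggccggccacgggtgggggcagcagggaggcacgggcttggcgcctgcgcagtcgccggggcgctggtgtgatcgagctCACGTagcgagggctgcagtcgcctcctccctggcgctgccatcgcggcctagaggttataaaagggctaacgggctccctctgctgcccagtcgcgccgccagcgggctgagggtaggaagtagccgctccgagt
BNIP3, chr10:131981874-131982173, minus strand: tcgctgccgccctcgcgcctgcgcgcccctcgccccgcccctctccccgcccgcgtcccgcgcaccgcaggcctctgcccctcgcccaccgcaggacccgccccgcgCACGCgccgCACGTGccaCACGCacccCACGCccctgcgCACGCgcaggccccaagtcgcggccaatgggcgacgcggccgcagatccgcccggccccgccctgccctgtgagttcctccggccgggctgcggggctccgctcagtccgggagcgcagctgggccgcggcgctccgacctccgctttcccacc

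RefSeq promoters were matched for 8 of the 10 genes (all but VEGFA and NDRG1), and 6 of these 8 held a core word, against 48.4% of all 35116 promoters of the same length. BNIP3 held 6 matches, ANKRD37 held 3, and CA9, ADM, KDM3A and P4HA1 held 1 each. The palindrome CACGTG, found in ANKRD37 and BNIP3, was counted on both strands. The windows of PDK1 and EGLN3 did not hold either word. G and C made up 62.0% to 80.7% of the windows with a match, 36.3% of the PDK1 window and 65.0% of the EGLN3 window. The part of base composition in these matches was not tested. The ATF4 word TGATGNAA, searched on both strands for the integrated stress response, was in 0 of the 8 windows and in 3.6% of all promoters. At this share few of 8 windows would hold the word, and the VEGFA promoter was not searched, so that no conclusion is drawn.

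**Figure D1:**
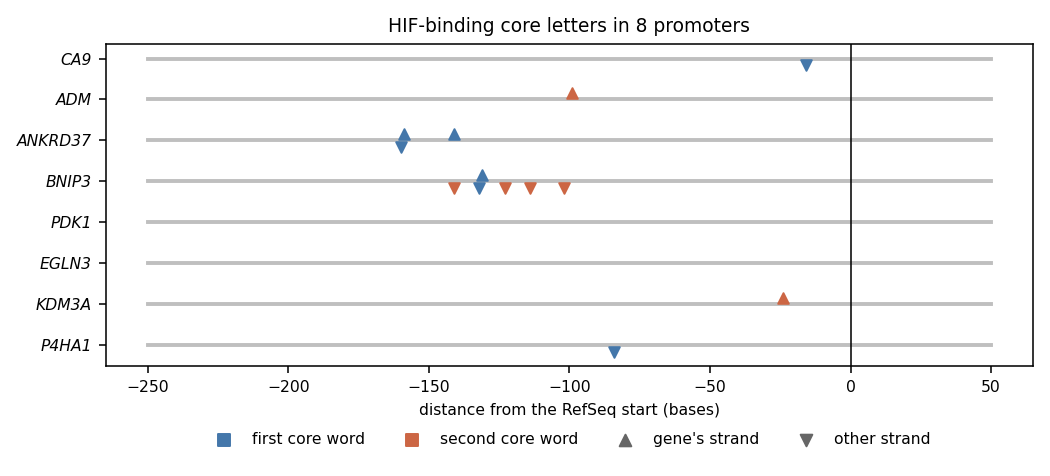
Positions of the HIF core words in the 8 matched promoters, as distance in bases from the RefSeq start (0, vertical line); blue stands for ACGTG, orange for GCGTG, and triangles pointing up or down for the strand of the gene or the other strand. BNIP3 has 6 matches between 143 and 100 bases before the start, and PDK1 and EGLN3 have no match.

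The oligonucleotides imitated or blocked 3 microRNAs, whose mature sequences (RefSeq) are shown with the seed, bases 2 to 8, in capitals because a seed match in a 3′ UTR is where a direct effect on a member would be looked for. The seeds differ from each other.
hsa-miR-200c-3p: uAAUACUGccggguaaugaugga
hsa-miR-222-5p: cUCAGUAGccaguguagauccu
hsa-miR-512-3p: aAGUGCUGucauagcugagguc

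Seed matches were searched in 1 reference 3′ UTR per gene (GENCODE release 44, GRCh38). PDK1, with a 3′ UTR of 12700 bases, held 3 matches for miR-200c-3p and 1 each for the other miRNAs, EGLN3 held 1 each for miR-200c-3p and miR-222-5p, and VEGFA held 1 for miR-200c-3p at position 1298 of its 1925 bases. The other 7 members did not hold a match for any of the 3 seeds, and NDRG1 and P4HA1, both highest in M512 with DMSO, are among them. Over all 18780 UTRs a match was present in 16.4% for miR-200c-3p, 9.3% for miR-222-5p and 19.9% for miR-512-3p. The windows around the PDK1 matches for the transfected mimics are shown with the match in capitals.
PDK1 with hsa-miR-222-5p, chr2:172603936-172603965, plus strand: tgcttctgtcaCTACTGAtgggcaaggata
PDK1 with hsa-miR-512-3p, chr2:172601277-172601306, plus strand: gagtagcaaaaCAGCACTgctaaagttacg

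VEGFA (ENSG00000112715, chr6:43770184-43786487, plus strand) encodes the main secreted growth factor for endothelial cells. At 6 h its 3 IC libraries with DMSO held 25.6, 31.6 and 28.6 CPM, and those with Sorafenib held 22.2, 24.6 and 22.5 CPM. In I200c the DMSO libraries held 9.52, 16.2 and 20.3 CPM and the Sorafenib libraries 19.9, 22.9 and 24.0 CPM. The IC groups did not overlap, with Sorafenib lower, and the I200c groups overlapped. Neither difference passed the test, with a log2 fold change of -0.32 (SE 0.24, adjusted p = 0.999) in IC and 0.52 (SE 0.24, adjusted p = 0.302) in I200c, and the mean over both was 0.10 (95% interval -0.23 to 0.43).

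At 24 h VEGFA was higher with Sorafenib in every transfection. In RNA from whole cultures, a change in the share of cells that express a gene cannot be told apart from a change per cell. The MC libraries held 16.3, 23.0 and 9.25 CPM with DMSO and 62.7, 43.5 and 79.4 CPM with Sorafenib. The M222 libraries held 18.7, 21.5 and 20.4 CPM with DMSO and 102, 63.5 and 86.4 CPM with Sorafenib. The M512 libraries held 23.8, 23.5 and 20.8 CPM with DMSO and 71.0, 73.2 and 99.5 CPM with Sorafenib. The summed hepatocyte markers moved beside this and the other changes of members at 24 h: they fell without overlap from 13800 to 15140 CPM with DMSO to 9996 to 12320 CPM with Sorafenib in MC, from 12510 to 14900 to 8539 to 11340 CPM in M222, and from 17850 to 18710 to 10890 to 12120 CPM in M512. Their part in these changes was not tested. The lowest of the 9 Sorafenib libraries for VEGFA was above the highest of the 9 DMSO libraries. The share of all genes separated over all 9 libraries was not counted. Within single transfections 25% (MC), 26.8% (M222) and 29.8% (M512) of all genes had groups without overlap in either direction. The fold was 3.87 in MC (log2 1.95, SE 0.29, adjusted p = 0.000534), 4.15 in M222 (log2 2.05, SE 0.29, adjusted p = 0.000251) and 3.50 in M512 (log2 1.81, SE 0.28, adjusted p = 0.000153). Over the 3 transfections the mean log2 fold change was 1.94 (SE 0.17, adjusted p = 9.77e-09), and it stayed between 1.84 and 2.08 when any 1 of the 18 libraries was left out. The effect in M222 differed from that in MC by 0.10 (95% interval -0.68 to 0.88) and that in M512 by -0.14 (-0.91 to 0.63) on the log2 scale. Differences between transfections of the size of the effect itself lie outside these intervals, while differences within the stated limits remain possible.

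Across the 10 groups the 3 Sorafenib groups at 24 h ranked first for VEGFA, with means of 84.0 ± 19.4 CPM in M222, 81.2 ± 15.8 in M512 and 61.8 ± 18 in MC (SD, n = 3), and their ranges overlapped each other. IC with DMSO followed at 28.6 ± 2.96 CPM, apart from its neighbours on both sides. The other 6 groups lay between 15.4 and 23.1 CPM, and each overlapped the next.

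**Figure D2:**
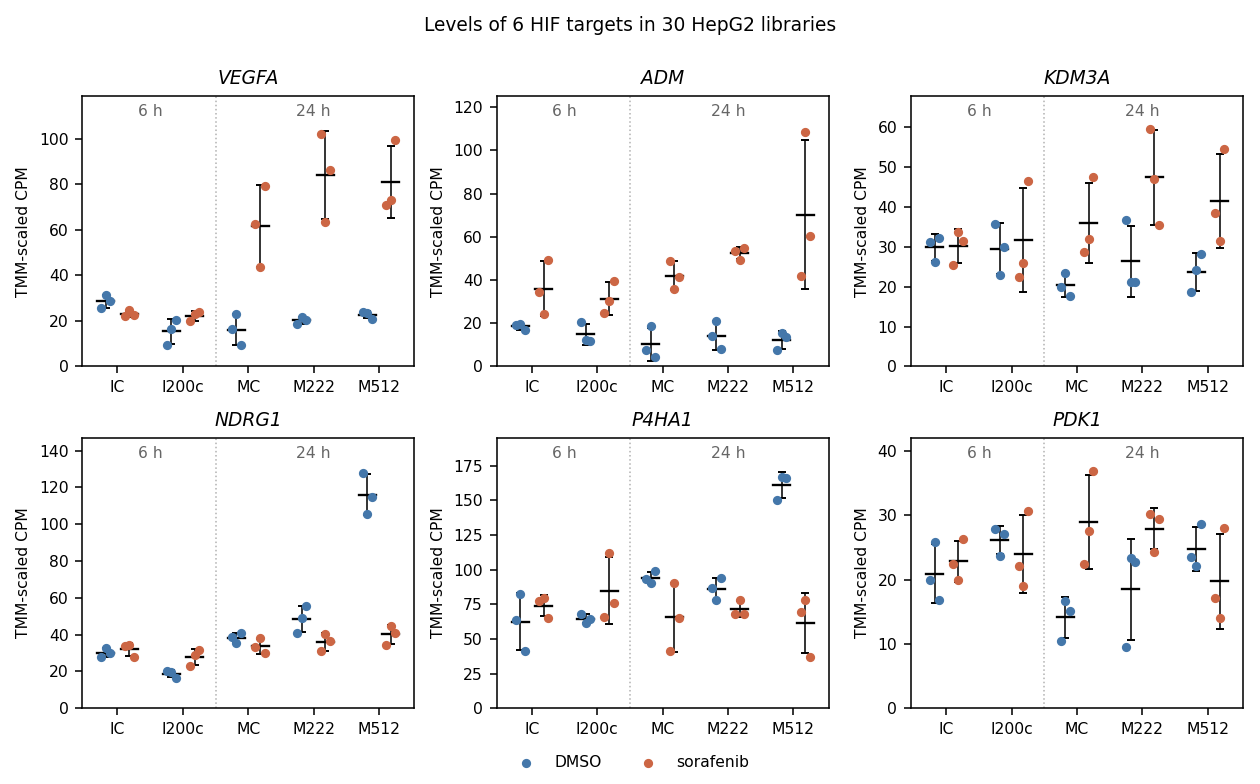
Levels of VEGFA, ADM, KDM3A, NDRG1, P4HA1 and PDK1 in TMM-scaled CPM (vertical axes, starting at 0) for the 5 transfections, with 1 point per library, blue for DMSO and orange for Sorafenib; the black bar is the mean and the whiskers are 1 SD of 3 libraries. VEGFA and ADM are higher with Sorafenib in all 3 transfections at 24 h, and NDRG1 and P4HA1 are highest in M512 with DMSO, at means of 116 and 161 CPM.

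ADM (ENSG00000148926, chr11:10305073-10307397, plus strand), the vasodilator peptide adrenomedullin, was the only 1 of the 8 tested members called higher with Sorafenib at 6 h, when 1.15% of all genes were. IC held 19.0, 19.8 and 16.8 CPM with DMSO against 34.2, 24.1 and 49.4 CPM with Sorafenib. I200c held 20.5, 12.2 and 11.7 CPM with DMSO against 24.7, 30.1 and 39.4 CPM with Sorafenib. The groups did not overlap in either transfection. The log2 fold change was 0.94 (SE 0.28) in IC, which did not pass (adjusted p = 0.475), and 1.09 (SE 0.27) in I200c, which did (adjusted p = 0.0369). The mean over both was 1.02 (SE 0.19, adjusted p = 0.00525, higher in 6 of 6 Sorafenib libraries against their own DMSO group). The call in I200c was lost without any 1 of 6 libraries (IC with DMSO 1, IC with Sorafenib 1, I200c with DMSO 2 or 3, I200c with Sorafenib 2 or 3), with adjusted p of 0.0545 to 0.126. In 1 fit over all 30 libraries the mean of 1.02 had an adjusted p of 0.0534.

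At 24 h ADM held 7.47, 18.9 and 4.26 CPM in MC with DMSO and 49.0, 35.9 and 41.3 CPM with Sorafenib. It held 14.2, 20.8 and 7.80 CPM in M222 with DMSO and 53.3, 49.4 and 55.0 CPM with Sorafenib, and 7.75, 15.5 and 13.4 CPM in M512 with DMSO and 41.7, 108.5 and 60.2 CPM with Sorafenib. The ranges were again separate in each transfection. ADM rose by 2.09 in MC (SE 0.43, adjusted p = 0.00672), 1.89 in M222 (SE 0.42, adjusted p = 0.00916) and 2.48 in M512 (SE 0.42, adjusted p = 0.000445) on the log2 scale, with a mean of 2.15 (SE 0.24, adjusted p = 6.04e-07). The calls in MC and M222 each rested on low DMSO libraries: adjusted p was 0.0579 and 0.0691 without MC with DMSO 1 or 3, and 0.0718 without M222 with DMSO 3. In order of level, all 5 Sorafenib groups (31.4 to 70.2 CPM) stood above all 5 DMSO groups (10.2 to 18.5 CPM), and I200c with Sorafenib, the lowest of the former, did not overlap IC with DMSO, the highest of the latter. The share of all genes in such an order was not counted.

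KDM3A (ENSG00000115548, chr2:86440647-86492716, plus strand), a histone H3 lysine demethylase that itself needs oxygen, had means of 29.6 to 31.7 CPM in the 4 groups at 6 h, with a log2 fold change of 0.01 in IC (-0.02 with total counts in place of TMM, adjusted p = 0.999) and 0.10 in I200c (adjusted p = 0.896). At 24 h MC held 19.99, 23.5 and 17.6 CPM with DMSO and 28.6, 31.9 and 47.5 CPM with Sorafenib. M222 held 36.7, 21.3 and 21.1 CPM against 59.6, 47.1 and 35.6 CPM, and M512 held 18.7, 24.3 and 28.3 CPM against 38.4, 31.4 and 54.5 CPM. The groups were separate in MC and M512 and overlapped in M222 through 1 DMSO library. No single transfection passed the test (log2 0.83, 0.84 and 0.78, adjusted p = 0.132, 0.101 and 0.0909), but the mean over the 3 did, at 0.81 (SE 0.17, adjusted p = 0.00087), and it passed without each library in turn.

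PDK1 (ENSG00000152256, chr2:172555373-172608669, plus strand) inhibits pyruvate dehydrogenase and so holds pyruvate back from mitochondrial oxidation. At 24 h MC held 10.5, 16.7 and 15.1 CPM with DMSO and 22.4, 27.5 and 36.8 CPM with Sorafenib. M222 held 9.47, 23.3 and 22.7 CPM against 30.1, 24.3 and 29.4 CPM, and M512 held 23.5, 22.2 and 28.7 CPM against 17.1, 14 and 28.1 CPM. Sorafenib libraries were separate and above in MC and M222, and the M512 groups overlapped with the means in the other order. The overlap in M512 came only from the Sorafenib library at 28.1 CPM, the same library that is set apart for ANKRD37 below. None of the 3 differences passed (log2 1.04, 0.60 and -0.35, adjusted p = 0.098, 0.342 and 0.564), nor did their mean of 0.43 (SE 0.19, adjusted p = 0.103). In 1 fit over all 30 libraries PDK1 was called in MC (1.04, adjusted p = 0.0338) and in the mean (0.45, adjusted p = 0.047). Over MC and M222 alone, a choice made after the values were seen, the mean was 0.82 (SE 0.24, adjusted p = 0.0214). At 6 h the log2 fold changes were 0.12 in IC and -0.13 in I200c, with overlapping groups.

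P4HA1 (ENSG00000122884, chr10:73007217-73096974, minus strand), the catalytic subunit of the collagen prolyl hydroxylase, had its highest level in M512 with DMSO. Those 3 libraries held 150.2, 167 and 166 CPM, while MC with DMSO held 93.3, 90.1 and 98.7 CPM and M222 with DMSO held 86.5, 77.9 and 94.1 CPM. With Sorafenib M512 held 69.7, 77.9 and 37.2 CPM, MC held 40.9, 90.5 and 65.3 CPM, and M222 held 68.0, 78.0 and 67.9 CPM. The M512 groups were far apart, and the MC and M222 groups overlapped. The log2 fold change with Sorafenib was -1.42 in M512 (SE 0.25, adjusted p = 0.000622), -0.52 in MC (adjusted p = 0.286) and -0.28 in M222 (adjusted p = 0.59). At 6 h it was 0.23 in IC and 0.39 in I200c, neither passing the test.

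NDRG1 (ENSG00000104419, chr8:133237175-133302022, minus strand), a stress-responsive protein studied as a suppressor of metastasis, also had its highest level in M512 with DMSO. M512 with DMSO held 128, 105 and 115 CPM, against 38.7, 35.6 and 41.0 CPM in MC with DMSO and 40.9, 48.9 and 55.3 CPM in M222 with DMSO. With Sorafenib M512 held 34.4, 44.8 and 41.1 CPM, MC held 33.2, 38.1 and 30.1 CPM, and M222 held 31.0, 40.4 and 36.6 CPM. The M512 and M222 libraries with Sorafenib were all below their DMSO libraries, and the MC groups overlapped. The log2 fold change with Sorafenib was -1.57 in M512 (SE 0.20, adjusted p = 2.31e-05), -0.43 in M222 (adjusted p = 0.244) and -0.18 in MC (adjusted p = 0.703). At 6 h NDRG1 was 0.55 higher with Sorafenib in I200c (SE 0.20), where the groups did not overlap, without passing the test (adjusted p = 0.158), and 0.08 in IC.

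Averaged over the 3 transfections at 24 h, NDRG1 was lower by a log2 of -0.73 (SE 0.12, adjusted p = 6.24e-05) and P4HA1 by -0.74 (SE 0.14, adjusted p = 0.000466). Both calls rested on M512. With M512 left out of the mean, an alternative added after the values were seen, they were -0.31 (adjusted p = 0.154) and -0.40 (adjusted p = 0.128), and 4 members were called (VEGFA, ADM, KDM3A and PDK1) beside 14.9% of all genes. The direct test of whether the effect in M512 differed from that in MC gave -1.38 for NDRG1 (SE 0.29, adjusted p = 0.179) and -0.90 for P4HA1 (SE 0.35, adjusted p = 0.917) with edgeR. DESeq2 gave -1.35 for NDRG1 with an adjusted p of 0.00411.

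The libraries of M512 with DMSO also stood apart in markers: their summed hepatocyte markers were 17850 to 18710 CPM against 8539 to 15140 CPM in the other 27 libraries, their fibroblast markers 11.7 to 13.6 against 0 to 8.99 CPM, and their leukocyte markers 245 to 311 against 103 to 240 CPM. The part of these shifts in the NDRG1 and P4HA1 values was not tested.

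BNIP3 (ENSG00000176171, chr10:131967684-131981967, minus strand), a mitochondrial outer membrane protein that promotes mitophagy, had group means from 61.3 CPM in IC with DMSO to 87.8 ± 8.2 CPM in M512 with DMSO, and every group overlapped the next in order. The log2 fold change with Sorafenib was 0.10 in IC, 0.06 in I200c, 0.08 in MC, 0.05 in M222 and -0.32 in M512, none passing the test (with total counts -0.03 in MC and -0.06 in M222), and the mean at 24 h was -0.07 (95% interval -0.29 to 0.16). A rise such as that of VEGFA lies far outside this interval.

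ANKRD37 (ENSG00000186352, chr4:185396021-185400628, plus strand), a small ankyrin repeat protein, was counted 3 to 77 times per library. In M512 with DMSO it held 5.78, 2.56 and 10.8 CPM, and with Sorafenib it held 0.582, 1.01 and 9.06 CPM, the last library being within the DMSO range. Its log2 fold changes ran from -0.85 in M512 to 0.66 in M222 with SEs of 0.45 to 0.85, and none passed. Without the third M512 library with Sorafenib the value in M512 was -3.02 (adjusted p = 0.0494). That library also had fewer mitochondrial counts (17.5% against 24.2% in the other 2) and more genes with a count (16582 against 13656 and 13866). In I200c the Sorafenib libraries (4.02, 2.74 and 2.51 CPM) were all below the DMSO libraries (4.76, 5.17 and 4.25 CPM), at a log2 of -0.61 (SE 0.45, adjusted p = 0.553).

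CA9, the membrane carbonic anhydrase used as a hypoxia marker (ENSG00000107159, chr9:35673928-35681159, plus strand), and EGLN3, the prolyl hydroxylase that HIF induces as a brake on itself (ENSG00000129521, chr14:33924227-34462774, minus strand), were close to the limit of detection. CA9 had 0 to 8 counts per library and 0 in all 3 libraries of MC with DMSO, and its group means were 0 to 0.691 CPM. EGLN3 had 0 to 16 counts per library and group means of 0.0535 to 0.794 CPM. Both were too low for the fits at 6 h and at 24 h, so that 8 of the 10 members were tested there. In M512 with DMSO, CA9 had 5 counts in each of the 3 libraries (0.615 to 0.754 CPM). Every library of MC and M222 with DMSO had 0 to 2 counts. A count of 0 still allows 0.727 CPM in MC with DMSO 2, which is within the M512 range. No fold is given for CA9 or EGLN3 within a treatment time.

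**Figure D3:**
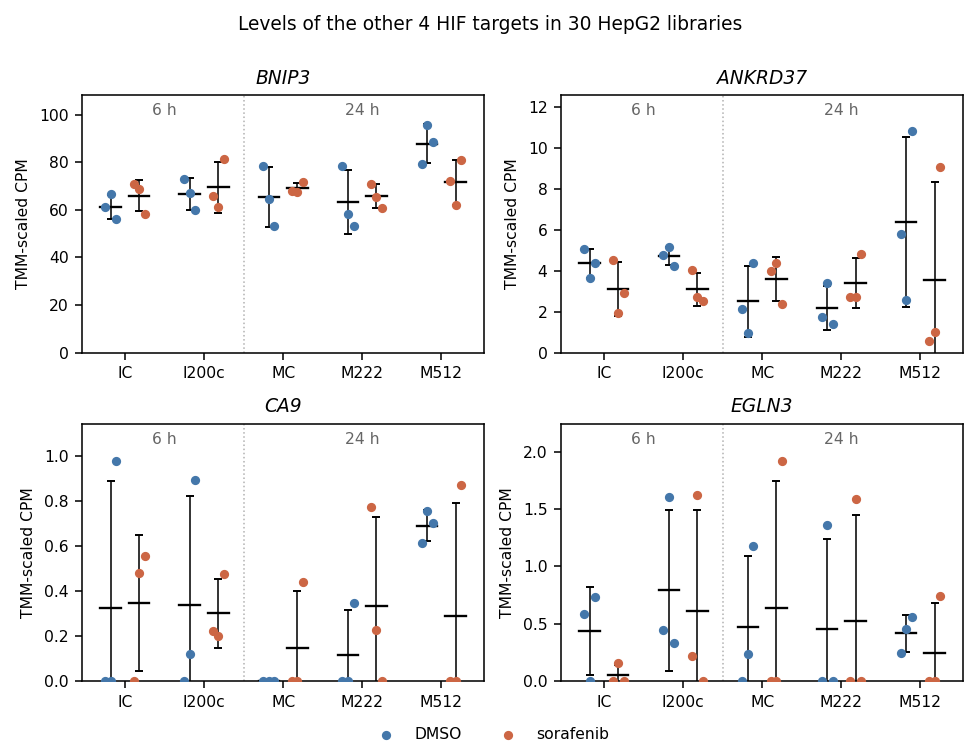
Levels of BNIP3, ANKRD37, CA9 and EGLN3 in TMM-scaled CPM (vertical axes, starting at 0), drawn as for the other members with 1 point per library, means and 1 SD of 3 libraries. BNIP3 stays between 53.0 and 95.7 CPM in every library, and CA9 and EGLN3 stay under 2 CPM.

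Counted over the 8 tested members, Sorafenib at 6 h changed 0 in IC and 1 in I200c (ADM, higher), where 0.0393% and 2.28% of all 12738 genes tested were called by edgeR at an adjusted p under 0.05. In IC 1 member (ADM) had an unadjusted p under 0.05, and DESeq2 called 0. The mean over both transfections at 6 h called 1 (ADM), against 2.89% of all genes, 1.15% higher and 1.73% lower. At 24 h the calls were 2 in MC (2.6% of 13244 genes), 2 in M222 (4.38%) and 4 in M512 (9.96%, with 5.34% higher and 4.62% lower). VEGFA and ADM were called higher in each, and NDRG1 and P4HA1 were called lower in M512. The mean over the 3 transfections called 3 higher (VEGFA, ADM, KDM3A) and 2 lower (NDRG1, P4HA1), where 25.8% of all genes were called, 13.4% higher and 12.4% lower. Groups without overlap were found for 2 of the 8 members in IC (13% of all genes), 3 in I200c (17.2%), 4 in MC (25%), 4 in M222 (26.8%) and 5 in M512 (29.8%). The median over the 8 members in the mean at 24 h was a log2 of 0.27, beside -0.04 over all genes, and the members ran from -0.74 to 2.15, so that they did not move as 1 group.

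**Figure D4:**
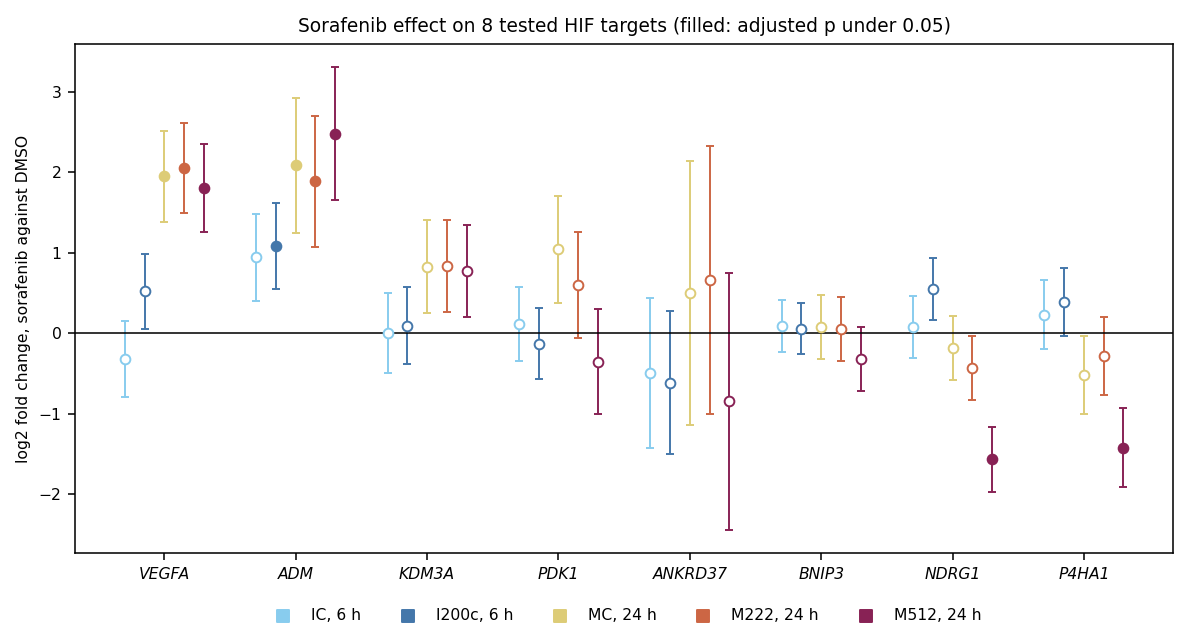
Log2 fold change of Sorafenib against DMSO for the 8 tested members in the 5 transfections, with 95% intervals; filled points have an edgeR adjusted p under 0.05 over all genes tested. VEGFA and ADM lie near 2 at 24 h in MC, M222 and M512, BNIP3 lies near 0 in every transfection except -0.32 in M512, and NDRG1 and P4HA1 are called in M512 at -1.57 and -1.42.

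The difference between the effect at 24 h and that at 6 h was tested in 1 fit over all 30 libraries, where EGLN3 was also tested, giving 9 members. The difference passed for VEGFA (log2 1.84, SE 0.24, adjusted p = 4.97e-06), ADM (1.15, SE 0.35, adjusted p = 0.0299), NDRG1 (-1.04, SE 0.17, adjusted p = 0.000156) and P4HA1 (-1.05, SE 0.23, adjusted p = 0.00211). It did not pass with edgeR for KDM3A (0.77, SE 0.26, adjusted p = 0.0545), which DESeq2 called (0.76, adjusted p = 0.0412) as did edgeR with no filter (0.76, adjusted p = 0.0435) and without any 1 of 5 libraries (I200c with DMSO 2 or Sorafenib 3, M222 with DMSO 1 or Sorafenib 3, M512 with Sorafenib 2; adjusted p = 0.016 to 0.0475). It did not pass for PDK1, BNIP3, ANKRD37 or EGLN3. Of all 13800 genes 9.41% were called. The ADM call was lost without any 1 of 11 libraries, with adjusted p of 0.05 to 0.0792. Between the control transfections only, MC minus IC, NDRG1 and P4HA1 differed by -0.29 (adjusted p = 0.659) and -0.78 (adjusted p = 0.343), and VEGFA alone was called, at 2.25 (SE 0.39, adjusted p = 0.0253, with 0.216% of 12500 genes called), and this call was lost without any 1 of 9 of the 12 libraries and with the replicate number as a block (2.27, adjusted p = 0.0501). In DMSO, VEGFA was 0.81 lower in MC at 24 h than in IC at 6 h (SE 0.28, adjusted p = 0.167) with no overlap. Both the DMSO and the Sorafenib levels therefore enter the 2.25. PDK1 and KDM3A were also lower, and NDRG1 and P4HA1 higher, without overlap between these DMSO groups. The share of all genes without overlap was not counted for them. Over the 8 members 0 were called in that DMSO comparison with edgeR (0.528% of all genes) and 0 with DESeq2, and 4 had an unadjusted p under 0.05.

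The oligonucleotides were compared with their controls within each treatment. M512 against MC in DMSO called NDRG1 (fold 3.01, log2 1.59, SE 0.20, adjusted p = 0.000201) and no other of the 8 members, beside 0.634% of all 13244 genes. P4HA1 (log2 0.77, SE 0.25), PDK1 (0.82, SE 0.34) and BNIP3 (0.42, SE 0.20) were also higher in all 3 M512 libraries than in all 3 MC libraries without passing the test (adjusted p = 0.189, 0.353 and 0.478), where 10.9% of all genes had the M512 libraries all above the MC libraries. PDK1 holds a seed match for miR-512-3p, and P4HA1 and BNIP3 do not. CA9, which was not tested and lay close to the limit of detection, had 5 counts in each M512 library and 0 in MC. A count of 0 still allows 0.727 CPM in MC with DMSO 2, within the M512 range of 0.615 to 0.754 CPM. The comparison of M512 with MC in DMSO and the Sorafenib effect in M512 share the M512 libraries with DMSO. In Sorafenib, M512 and MC differed by 0.21 for NDRG1 (SE 0.20, adjusted p = 0.769) and by -0.13 for P4HA1 (SE 0.25, adjusted p = 0.906), and 0 of the 8 members were called by edgeR or DESeq2 or had an unadjusted p under 0.05, beside 0.355% of all genes called.

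M222 against MC called 0 of the 8 members in DMSO and 0 in Sorafenib with edgeR, as it called 0% of all 13244 genes in both, and 0 members had an unadjusted p under 0.05 and DESeq2 also called 0. I200c against IC called 0 in each treatment with edgeR and with DESeq2 (0.0157% and 0% of all genes with edgeR), with 2 members at an unadjusted p under 0.05 in DMSO and 0 in Sorafenib. Those 2 were VEGFA (log2 -0.88, SE 0.24, adjusted p = 0.712) and NDRG1 (-0.67, SE 0.20, adjusted p = 0.733), both lower in all 3 I200c libraries with DMSO than in all 3 IC libraries, as were 5.38% of all genes. Of these, VEGFA holds a seed match for miR-200c-3p and NDRG1 does not. PDK1, with 3 seed matches for miR-200c-3p, differed by 0.33 (SE 0.23, adjusted p = 0.96) in the same comparison. The test of whether the Sorafenib effect depended on the oligonucleotide called 0 members at 6 h and 0 in M222 with edgeR and with DESeq2, where 1 and 0 members had an unadjusted p under 0.05 and edgeR called 0% of all genes in both. In M512 edgeR called 0 (0.00755% of all genes) and DESeq2 called 1 (NDRG1), and 3 had an unadjusted p under 0.05. In I200c the VEGFA difference was 0.84 (SE 0.34, adjusted p = 1).

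Among the regulators of HIF, 14 of 16 listed genes were tested, 0 were called at 6 h (2 at an unadjusted p under 0.05 with edgeR, 0 with DESeq2), and 5 were called higher and 2 lower in the mean at 24 h. Of all genes 2.89% were called in the mean at 6 h, and 13.4% were called higher and 12.4% lower in that at 24 h. HIF1A changed by 0.33 (SE 0.11, adjusted p = 0.0336), with means of 61.1 to 80.6 CPM in MC, 62.2 to 61.9 in M222 and 42.7 to 66.0 in M512 from DMSO to Sorafenib, and this call was lost with total counts (0.19, adjusted p = 0.196), with no filter on low counts (adjusted p = 0.119), with M512 left out of the mean (0.20, adjusted p = 0.364) and without any 1 of 4 libraries (MC with DMSO 3, M222 with DMSO 1, M512 with DMSO 1 or Sorafenib 2; 0.27 to 0.32, adjusted p = 0.0557 to 0.088). ARNT, the common partner of the alpha subunits, rose by 0.61 (SE 0.16, adjusted p = 0.0068). CITED2, a competitor of HIF for its coactivators, rose by 1.32 (SE 0.29, adjusted p = 0.00152), and the coactivator CREBBP by 0.58 (adjusted p = 0.00185). ELOC, a subunit of the VHL complex named here after its value was seen, rose by 0.53 (adjusted p = 0.0412). The asparagine hydroxylase HIF1AN (-0.69, adjusted p = 0.00375) and the ubiquitin ligase subunit RBX1 (-0.56, adjusted p = 0.00259) fell. EPAS1, VHL and EGLN1 did not pass, at -0.20, 0.09 and 0.01, the last 2 being -0.06 and -0.11 with total counts. These are RNA levels, and the HIF alpha subunits are controlled mainly as proteins, which were not measured here.

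The other HIF targets did not share 1 direction. Of 20 genes of glucose uptake and glycolysis 19 were tested, and the only call at 24 h was PFKFB3, an enzyme that makes the activator of phosphofructokinase (log2 1.59, SE 0.36, adjusted p = 0.00179, with DESeq2 calling 4 genes); at 6 h 0 were called with edgeR or DESeq2 and 3 had an unadjusted p under 0.05. The median of the list at 24 h was 0.04. Of all genes edgeR called 25.8% in the mean at 24 h and 2.89% in that at 6 h. PFKFB3 stood at 7.55 to 10.6 CPM in the 3 DMSO groups and 23.3 to 27.8 CPM in the 3 Sorafenib groups.

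Of 32 further HIF targets 30 were tested at 24 h, 6 were called higher and 4 lower, and the median was 0.07. Of all genes 13.4% were called higher and 12.4% lower in the same mean. BHLHE40, a transcriptional repressor, rose by 3.58 (SE 0.34, adjusted p = 4.82e-08), from 2.88 to 4.83 CPM in the DMSO groups to 44.9 to 48.2 CPM in the Sorafenib groups. DDIT4, an inhibitor of mTORC1, rose by 2.06 (SE 0.31, adjusted p = 2.27e-05), and the secreted glycoprotein STC2 by 1.41 (SE 0.15, adjusted p = 1.36e-07). The fucosyltransferase gene FUT11 fell by 1.24 on the log2 scale (adjusted p = 0.000703). Other calls, named after their values were seen, were VLDLR and WSB1 on the higher side and AK4, CP and MIR210HG on the lower side; VLDLR and MIR210HG had groups with 0 to 1 counts, and no fold is given for them.

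At 6 h 4 of 29 of these targets were called higher, where 1.15% of all genes were. BHLHE40 rose by 1.97 (SE 0.20, adjusted p = 5.72e-06) and DDIT4 by 0.83 (SE 0.14, adjusted p = 0.00202), and PLOD1 and ANKZF1, named after their values were seen, were also called higher. The DDIT4 call was kept in 5 of 6 alternatives other than leaving out a library, with an adjusted p of up to 0.287.

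**Figure D5:**
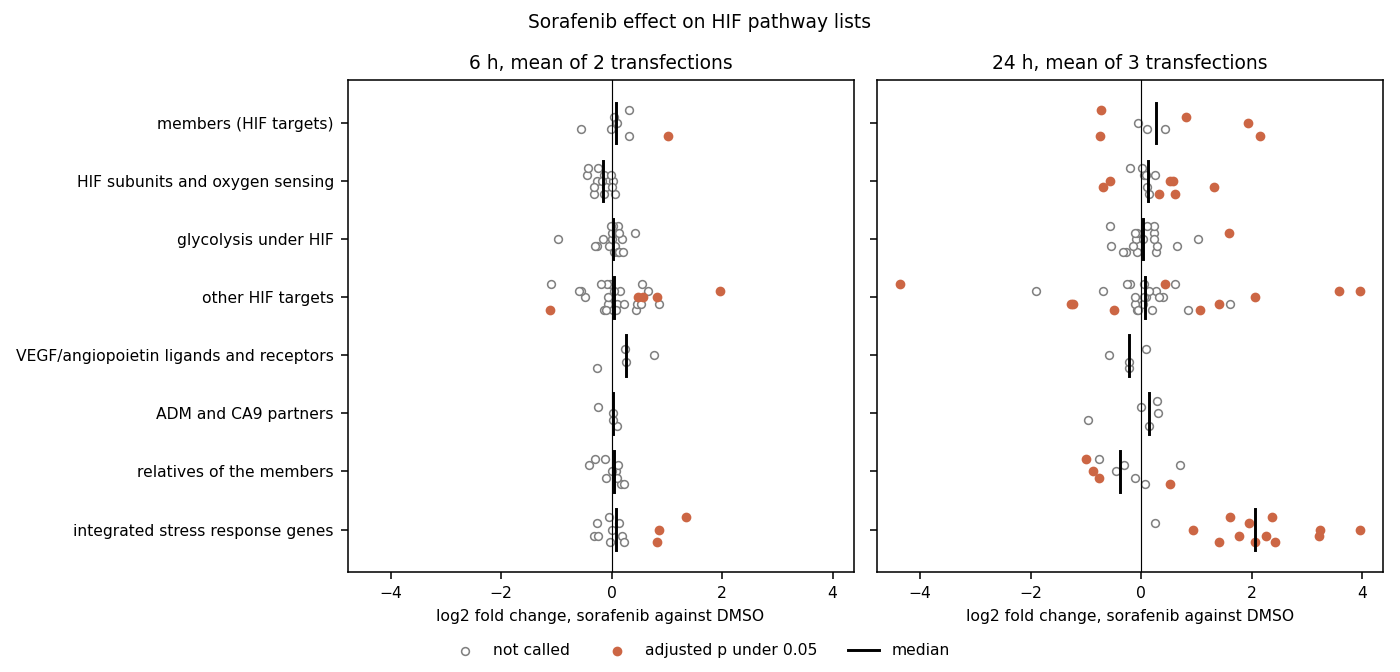
Log2 fold change of Sorafenib against DMSO for each tested gene of 8 lists, as the mean of IC and I200c at 6 h (left) and of MC, M222 and M512 at 24 h (right); filled points have an edgeR adjusted p under 0.05 and the bar is the median of the list. At 24 h the list medians lie between -0.38 and 0.27 except for the integrated stress response genes at 2.06.

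The ligands and receptors of the VEGF and angiopoietin families gave 4 tested genes of 12, and 8 of the 12 had any count. None of the 4 was called at 6 h or 24 h with edgeR or DESeq2, and 0 had an unadjusted p under 0.05. VEGFB, another ligand of the family, named after its values were seen, stood at 15.8 to 18.4 CPM in the DMSO groups and 15.5 to 22.1 CPM in the Sorafenib groups at 24 h. The VEGFA receptor KDR had 0 counts in all 30 libraries and FLT1 had 0 to 4 counts per group. Among 12 partners of ADM and CA9 (receptors, other carbonic anhydrases and transporters) 5 were tested at 24 h, and 0 were called by either tool, with 0 at an unadjusted p under 0.05. In the mean at 24 h edgeR called 25.8% of all genes.

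Relatives of the members, 10 of 12 tested, gave 0 calls at 6 h with edgeR or DESeq2 (1 at an unadjusted p under 0.05) and 1 gene higher and 3 lower at 24 h. Beside this, edgeR called 2.89% of all genes at 6 h, and 13.4% higher and 12.4% lower at 24 h. JMJD1C, related to KDM3A, rose by 0.52 (adjusted p = 0.00966), a call lost with M512 left out of the mean (0.49, adjusted p = 0.0638). NDRG2 fell by 0.87 on the log2 scale (SE 0.17, adjusted p = 0.000573), as did the PDK1 relative PDK2 (-0.76, adjusted p = 0.00316) and the opposing phosphatase PDP2 (-0.995, SE 0.33, adjusted p = 0.0262); the last call was lost without any 1 of 6 libraries.

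The integrated stress response genes are given beside the members because VEGFA is a known target of both pathways. At 6 h 3 of 12 tested genes were called higher and 0 lower, and at 24 h 12 of 13 were called higher, with a median log2 of 2.06 beside -0.04 over all genes. Of all genes 1.15% were called higher at 6 h and 13.4% at 24 h. DDIT3, the transcription factor CHOP, rose by 1.35 at 6 h (SE 0.18, adjusted p = 0.000121), when VEGFA did not pass the test, and by 2.36 at 24 h. PPP1R15A, which helps end the response, rose by 0.86 at 6 h (adjusted p = 0.0146) and by 3.24 at 24 h (SE 0.23, adjusted p = 1.65e-09). At 6 h the PPP1R15A and DDIT4 calls were each kept in 5 of 6 alternatives other than leaving out a library. Their highest adjusted p was 0.0766 and 0.287. The secreted stress factor GDF15 (2.26), the asparagine synthetase ASNS (2.43) and the pseudokinase TRIB3 (1.78) rose at 24 h, with adjusted p of 2.57e-09 to 8.57e-09. DDIT4, STC2 and VLDLR belong to this list as well as to the HIF targets.

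The genes whose pattern over the 10 groups was most like that of VEGFA were CEBPB, MSL2, PER1, SDE2 and GNA13, with root-mean-square distances of 0.20, 0.24, 0.24, 0.26 and 0.26 between log2 group means centred per gene, among 8179 genes with a mean of at least 10 CPM. VEGFA itself had an SD of 0.92 over these 10 group means. CEBPB, a transcription factor of the same stress response, stood at 33.5 to 60.3 CPM in the 3 DMSO groups at 24 h and 148 to 230.1 CPM in the 3 Sorafenib groups. It was picked for its likeness to VEGFA over these same groups, so that its rise follows from the choice and is not a separate result.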

How the data were processed

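RNA from 30 HepG2 cultures, called biological replicates in the design text, was read from the 3′ end (QuantSeq FWD). Per the submitters' processing notes DRAGEN, STAR, HTSeq and DESeq2 were used with GRCh38; the aligner and counter versions, annotation release and strand setting are not given in the sources used here, so that reads of overlapping genes may be mixed. The raw counts per gene deposited by the authors were used. The normalised values the authors deposited were left out, because they are not on 1 scale across transfections. Of 60199 lines of counts 92 named no gene and held 3 counts in all; they were left out.

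Counts were tested with edgeR 4.0.16 (R 4.3.3) by its quasi-likelihood test, with TMM scaling, the tool's own filter on low counts (filterByExpr) and Benjamini-Hochberg adjustment over all genes tested, and called at an adjusted p under 0.05. The 12 libraries at 6 h (12738 genes), the 18 at 24 h (13244 genes), the 12 control libraries (12500 genes) and all 30 (13800 genes) were fitted separately. CPM were TMM-scaled over all 30 libraries. Depth was 3938764 to 9657063 counts, mitochondrial genes took 17.5% to 26.8%, and replicates correlated at 0.964 to 0.99 over genes on the log scale. The chi-square per degree of freedom between replicates was 4.54 to 66.2, so that no pair looked like 1 library deposited 2 times.

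The members and lists were chosen with earlier results of these data known. Named from each list were up to 4 genes of smallest adjusted p among those called at 24 h and up to 3 at 6 h, with HIF1A, EPAS1, ARNT, VHL and EGLN1 always; 1 gene that this rule names is not reported here. Alternatives were total counts, no filter, DESeq2 1.42.0, the replicate number as a block, 1 fit over all libraries and each library left out; leaving M512 out of the mean at 24 h was added after the data were seen. On simulated counts with known changes, 68.7% of genes changed by a log2 of 1 were called in the mean at 6 h and 69.7% at 24 h.

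The replicate numbers were checked by correlating deviations from the group means. Every pair exceeded 0.1 only for Sorafenib against DMSO in M222 (0.16 to 0.232) and for M222 against MC in DMSO (0.321 to 0.381), from the data and not from the labels.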

Additional observations from a re-analysis of the deposited data

Results flagged for a closer look

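In 5 cases the effect of Sorafenib differed between the treatment times by a test of the difference itself (edgeR quasi-likelihood test, adjusted over all genes). For VEGFA the effect in MC at 24 h exceeded that in IC at 6 h by 2.25 on the log2 scale (SE 0.39, adjusted p = 0.0253). This call was kept in only 3 of the 12 fits that left out 1 library. It was lost with the replicate number as a block (adjusted p = 0.0501). The mean effect on VEGFA at 24 h exceeded that at 6 h by 1.84 (adjusted p = 4.97e-06), in a comparison that shares libraries with the former. For ADM the mean effect was larger at 24 h by 1.15 (adjusted p = 0.0299), a call kept in 19 of the 30 fits that left out 1 library. For NDRG1 and P4HA1 the effect at 24 h lay below that at 6 h, by -1.04 (adjusted p = 0.000156) and -1.05 (adjusted p = 0.00211). Between the control transfections only, MC minus IC, these differences were -0.29 (adjusted p = 0.659) and -0.78 (adjusted p = 0.343). The libraries at 6 h and at 24 h carried different oligonucleotides, and the time cannot be told apart from them. Groups of 3 libraries were not searched for libraries far from the others.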

How the results depend on the processing

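The VEGFA and ADM calls in the mean at 24 h and the ADM call in the mean at 6 h were kept with total counts, with no filter, with DESeq2, with the replicate number as a block and without each library in turn. In 1 fit over all 30 libraries the ADM call at 6 h was lost. Of the values of single genes under alternatives other than leaving out a library, 842 kept direction and side of the threshold, 12 lost the call, 10 gained one and 11 changed sign. The number of members called moved in 6 cases. With no filter it became 1 in IC at 6 h (ADM 0.95, adjusted p = 0.0449) and 2 in MC against IC in DMSO (VEGFA and ADM). With 1 fit over all 30 libraries it became 0 in I200c and 0 in the mean at 6 h, with DESeq2 1 for the M512 difference, and with the replicate block 0 for MC minus IC; the block moved no other count of members by over 1.5 times. The cause was not tested.

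Under these alternatives 11 values changed sign. With total counts the log2 value was -0.023 for KDM3A in IC, -0.019 for PFKFB3 in the mean at 6 h, -0.027 and -0.062 for BNIP3 in MC and M222, and -0.007, -0.055 and -0.108 for ANKRD37, VHL and EGLN1 in the mean at 24 h. It was 0.001 for PDK1 at 6 h with no filter, -0.005 for EGLN1 at 24 h with the replicate block, and 0.064 for BNIP3 and -0.018 for EGLN1 without M512.

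Without 1 library at a time the members called ran from 0 to 1 in I200c, 1 to 2 in MC, 1 to 2 in M222, 4 to 5 in M512, 0 to 2 for MC minus IC, 0 to 2 for MC against IC in DMSO and 3 to 5 for 24 h minus 6 h. Log2 values that changed sign ran, in IC, from -0.003 to 0.301 (PDK1) and -0.076 to 0.12 (KDM3A), and in I200c from -0.055 to 0.147 (BNIP3), -0.332 to 0.015 (PDK1) and -0.273 to 0.291 (KDM3A). In the mean at 6 h they ran from -0.018 to 0.231 (VEGFA), -0.105 to 0.083 (PDK1), -0.13 to 0.15 (KDM3A), -0.029 to 0.18 (ARNT), -0.083 to 0.045 (VHL), -0.272 to 0.149 (CITED2), -0.057 to 0.135 (CREBBP), -0.109 to 0.143 (PFKFB3), -0.194 to 0.021 (FUT11), -0.026 to 0.345 (PDK2), -0.273 to 0.131 (PDP2) and -0.108 to 0.017 (ASNS). At 24 h they ran from -0.068 to 0.254 and -0.028 to 0.235 (BNIP3 in MC and M222), and in the mean from -0.627 to 0.335 (ANKRD37), -0.113 to 0.016 (BNIP3) and -0.157 to 0.134 (EGLN1). Between oligonucleotides they ran from -0.084 to 1.06 (ADM, M512 against MC in DMSO) and -0.347 to 0.19 (P4HA1 in Sorafenib). The difference of effects ran from -0.094 to 0.452 for ADM in I200c, -0.211 to 0.399 and -0.462 to 0.166 for VEGFA in M222 and M512, -0.94 to 0.192 and -0.352 to 0.798 for ADM in the same, and -0.075 to 0.869 (ANKRD37) and -0.177 to 3.038 (EGLN3) for 24 h minus 6 h.

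Counts over all genes moved more than those of the members. Beside the edgeR counts of 5 (IC), 291 (I200c), 344 (MC) and 580 (M222), no filter gave 62, 519, 684 and 861 and DESeq2 35, 541, 731 and 1035, and for M512 against MC in DMSO 84 became 292 and 233. With total counts the median of all genes in the mean at 24 h moved from -0.04 to -0.17, and the share of calls that were higher from 52.1% to 32.9%. In single transfections this share moved from 69.5% to 50.1% (MC), 64.3% to 47.9% (M222) and 53.6% to 30% (M512). Low counts left CA9 without any test and EGLN3 without one within a treatment time.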
